A study of Homo sapiens with 8 samples.

Results

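TGF-beta and activin signalling genes were described in HCT-8 colon cancer cells and in their 5-fluorouracil (5-FU)-resistant derivative HCT-8/FU. The members were 9 genes chosen by symbol: the ligand genes TGFB1, TGFB2 and INHBA, the receptor genes TGFBR1 and TGFBR2, the transducer SMAD3, and the inhibitors SMAD7, SKIL and BAMBI. All 9 symbols were matched to 1 Ensembl gene identifier each, out of 64253 genes in the count files, and 8 of the 9 passed the filter on low counts and were tested. HCT-8 is an epithelial line from a human colorectal adenocarcinoma, and 5-FU is a pyrimidine analogue used against colorectal cancer. mRNA sequencing was performed in 4 groups of 2 libraries: HCT-8 and HCT-8/FU in unconditioned medium, HCT-8 cells kept in conditioned medium (CM) taken from HCT-8 cultures after 48 h (labelled CM of HCT-8, control-CM below), and HCT-8 cells kept in CM taken likewise from HCT-8/FU cultures (labelled CM of HCT-8/FU, FU-CM below). The study asked what distinguishes resistant from sensitive cells, and what medium from resistant cells does to sensitive ones. The cells of all 4 groups are of HCT-8 origin, and HCT-8/FU is 1 purchased resistant line of which the sources used here do not give the derivation. The labels name Ham's F12 as the medium, whereas the study's methods name an RPMI medium. Nothing states that the 2 replicates of a group are separate cultures, so every p-value below measures the spread between these libraries, which may be technical.

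TGF-beta and activin ligands are secreted dimers that bring a type II and a type I serine/threonine kinase receptor together at the cell surface. The activated type I receptor phosphorylates SMAD2 and SMAD3, which join SMAD4, enter the nucleus and regulate transcription. Inhibitory SMADs, the decoy receptor BAMBI and nuclear co-repressors such as SKIL restrain the signal, and several of them are themselves induced by it. In the colon epithelium the pathway limits proliferation, and colorectal cancers often carry lesions in it.

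Counts assigned to genes ranged from 5804124 to 34881349 per library. HCT-8 replicate 1, HCT-8/FU replicate 2 and control-CM replicate 1 held the fewest counts (5804124 to 9350753) and had 20% to 29.6% of their records not aligned, against 3.58% to 4.43% in the other 5 libraries. All 7 colon epithelial markers (EPCAM, CDH1, KRT8, KRT18, KRT19, CDX2 and VIL1) were above 1 CPM (counts scaled to the size of the library) and summed to between 9310 and 11600 CPM. The 6 fibroblast markers summed to 4.35 to 9.38 CPM, with COL1A2 at 0 in every library, the 3 endothelial markers to 1.27 to 2.45 CPM, and the 3 leukocyte markers to 0.167 to 0.691 CPM, with PTPRC and CD3E at 0. A gene was called differentially expressed (DE) where the false discovery rate (FDR) did not exceed 0.05 and the log2 fold change reached 0.58 in size. The FDR is the Benjamini-Hochberg adjusted p-value of edgeR's quasi-likelihood test over all 20305 tested genes. In HCT-8/FU relative to HCT-8, 2677 genes were DE and higher and 1648 DE and lower, and this split depended on the scaling, with 3166 and 1192 when the library scaling was referred to control-CM replicate 2, and 1446 and 1600 after each library had been corrected for GC content and length of the genes. Between FU-CM and control-CM the split was 1619 to 259, and 526 to 428 after that correction. Between control-CM and HCT-8 it was 783 to 872, and 617 to 1088 with DESeq2's size factors.

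Per kilobase of exon, TGFB1 and TGFBR2 were the most abundant of the 9 genes, with a mean over the 8 libraries of 65.0 and 62.2 CPM per kb. SMAD3 followed at 15.5 CPM per kb. BAMBI, SMAD7 and TGFBR1 lay between 5.74 and 8.6 CPM per kb, and SKIL at 1.53. TGFB2 was barely detected, at 0.154 CPM per kb, and INHBA hardly at all. In bulk RNA of this kind, fewer cells expressing a gene and less RNA per cell cannot be told apart. The plot of CPM by library shows every member in every library.

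**Figure D1:**
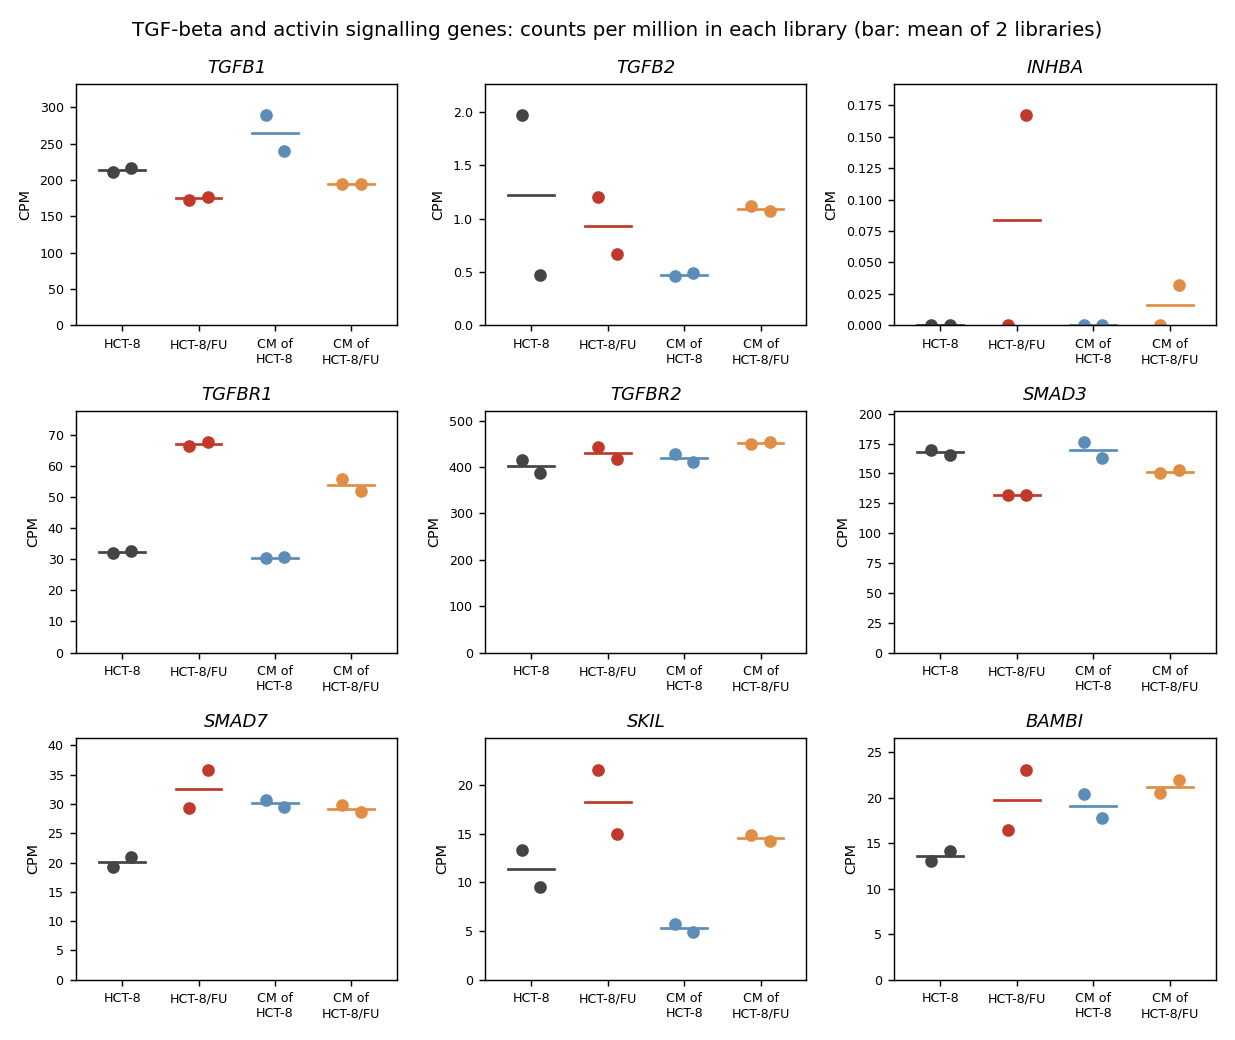
CPM (linear axis from 0, a separate scale per gene) of the 9 members in the 8 libraries, with control-CM and FU-CM under their labels; each point is 1 library and each bar the mean of the 2 libraries of a group, so that the distance between the points is the whole spread. TGFBR1 separated HCT-8/FU and FU-CM (51.8 to 67.5 CPM) from HCT-8 and control-CM (30.3 to 32.7 CPM), whereas the TGFBR2 libraries all lay between 388 and 453 CPM.

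TGFB1, the ligand that most epithelial and stromal cells secrete in latent form, lies on the minus strand of chromosome 19 of GRCh38, from 41301587 to 41353922 (ENSG00000105329). Its libraries read 211 and 216 CPM in HCT-8, 172 and 177 for HCT-8/FU, 289 and 240 in control-CM, and 195 in both replicates of FU-CM. The 4 groups did not overlap, with control-CM highest and HCT-8/FU lowest. HCT-8/FU held 175 ± 3.44 CPM (SD, n = 2 here and for every group mean below) against 214 ± 3.49 CPM in HCT-8, a log2 fold change of -0.29 (SE 0.08, FDR = 0.013 in edgeR) that was under the fold threshold. FU-CM, at 195 ± 0.363 CPM, was 1.35-fold under control-CM, at 265 ± 34.1 CPM (log2 fold change -0.43, SE 0.08, FDR = 0.0016 in edgeR), again below the threshold. The extremes of the order, HCT-8/FU and control-CM, differed 1.51-fold, and this was the only pair in which TGFB1 was DE (log2 fold change -0.6, SE 0.08, FDR = 5.1e-05 in edgeR). Corrected for GC content and length this difference was -0.15 (FDR = 0.47 in edgeR). The exons of TGFB1 share 6.59% of their bases with HNRNPUL1 on the opposite strand, and the sources used here do not give the strand setting of the counting.

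TGFB2, a second TGF-beta isoform, lies on the plus strand of chromosome 1, from 218345336 to 218444619 (ENSG00000092969). It was measured from 4 to 36 counts per library, or 1.97 and 0.473 CPM in HCT-8, 1.2 and 0.669 for HCT-8/FU, 0.46 and 0.49 in control-CM, and 1.12 and 1.07 in FU-CM. The HCT-8 replicates lay furthest apart, with HCT-8 replicate 1 the highest library of all, and no pair of groups was DE. The 95% interval for HCT-8/FU over HCT-8 ran from -1.19 to 1.31 on the log2 scale, which includes changes past the fold threshold in either direction. FU-CM was above control-CM without overlap, by 1.18 (SE 0.65, FDR = 0.24 in edgeR) on the log2 scale. TGFB2-AS1 on the opposite strand covers 11.6% of the exonic bases of TGFB2.

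INHBA, which encodes the beta-A subunit that forms activin A, lies on the minus strand of chromosome 7, from 41667168 to 41705834 (ENSG00000122641). It had 0 counts in 6 libraries and 1 count in each of HCT-8/FU replicate 2 (0.167 CPM) and FU-CM replicate 2 (0.0324 CPM). A count of 0 allows up to 3 counts, which in the 6 libraries without a count is 0.0886 CPM (HCT-8 replicate 2) to 0.395 CPM (HCT-8 replicate 1), for counting error only. INHBA was not tested.

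TGFBR1, the type I receptor kinase that phosphorylates SMAD2 and SMAD3, rose in both comparisons with HCT-8/FU. The gene lies on the plus strand of chromosome 9, from 99104038 to 99154192 (ENSG00000106799). It read 31.9 and 32.7 CPM in HCT-8, 66.3 and 67.5 for HCT-8/FU, 30.3 and 30.7 in control-CM, and 55.6 and 51.8 in FU-CM. Both libraries of HCT-8/FU and both of FU-CM lay above all 4 libraries of the other groups. HCT-8/FU exceeded HCT-8 by 2.06-fold (66.9 ± 0.892 against 32.3 ± 0.614 CPM; log2 fold change 1.04, SE 0.09, FDR = 5.8e-07 in edgeR). FU-CM exceeded control-CM by 1.76-fold (53.7 ± 2.66 against 30.5 ± 0.277 CPM; log2 fold change 0.82, SE 0.09, FDR = 1.3e-05 in edgeR). control-CM differed from HCT-8 by -0.09 (SE 0.1, FDR = 0.6 in edgeR, 95% interval -0.27 to 0.1). The rise in HCT-8/FU and the rise in FU-CM differed by 0.23 (SE 0.13, FDR = 0.31 in edgeR, 95% interval -0.02 to 0.48). Corrected for GC content and length, neither rise was DE, at 0.5 (FDR = 0.0017 in edgeR) and 0.3 (FDR = 0.069 in edgeR), and the exons of TGFBR1 have a GC content of 39.1%.

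Bases before a RefSeq transcript start of TGFBR1 and of SKIL, both of which lie inside the gene as annotated above, are shown because both genes were higher in HCT-8/FU and in FU-CM than in their controls, and those of SMAD7, further below, because it was not. In the sequences, taken from RefSeq on GRCh38.p14 and read 5′ to 3′ on the strand of the gene, capitals mark matches to CAGAC or its reverse complement GTCTG, the core motif to which SMAD3 and SMAD4 bind. The first stretch, from 1 of the 8 RefSeq windows of TGFBR1, of which 4 hold a match, is chr9:99104863-99105036 on the plus strand and holds 1 match, in 174 bases with a GC content of 81%, ending 76 bases before the start of that RefSeq transcript, at the edge of an annotated exon.
TGFBR1, before a transcript start: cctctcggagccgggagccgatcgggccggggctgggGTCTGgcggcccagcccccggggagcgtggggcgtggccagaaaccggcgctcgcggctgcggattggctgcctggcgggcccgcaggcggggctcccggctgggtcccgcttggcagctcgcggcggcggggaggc
The second is chr3:170357596-170357625 on the plus strand, 30 bases around the 1 match in the 250 bases before the RefSeq transcript start of SKIL, with 89 bases left between the stretch and that start.
SKIL, before a transcript start: gacggcggcggcGTCTGcgggaagctgtgt
The core motif occurred in 38.0% of 35116 RefSeq windows of 250 bases upstream of a start, and in 11 of the 23 windows of the 9 members, which belonged to 6 of them. Windows of a gene can overlap, and the match printed for TGFBR1 lies in another of its windows too, so these counts include it more than once. The full palindrome GTCTAGAC occurred in 0.182% of all windows and in 0 of the 23. A match describes these letters only and does not show binding.

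TGFBR2, the type II receptor that binds the ligand first, lies on the plus strand of chromosome 3, from 30606601 to 30694142 (ENSG00000163513). Its libraries read 415 and 388 CPM in HCT-8, 444 and 418 for HCT-8/FU, 428 and 411 in control-CM, and 450 and 453 in FU-CM. HCT-8 had the lowest mean and FU-CM the highest, both FU-CM libraries lay above the other 6, and control-CM overlapped with HCT-8 and with HCT-8/FU. HCT-8/FU differed from HCT-8 by 0.11 on the log2 scale (SE 0.07, FDR = 0.27 in edgeR, 95% interval -0.03 to 0.24). FU-CM differed from control-CM by 0.11 as well (FDR = 0.32 in edgeR, 95% interval -0.03 to 0.24). Both intervals end under the fold threshold of 0.58. Per kilobase, the type I receptor gene stood at 4.04 CPM per kb against 58.6 for the type II receptor gene in HCT-8, and at 8.37 against 62.9 in HCT-8/FU.

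SMAD3, the receptor-activated transducer, lies on the plus strand of chromosome 15, from 67063763 to 67195173 (ENSG00000166949). It read 170 and 165 CPM in HCT-8, 132 in both libraries of HCT-8/FU, 176 and 163 in control-CM, and 150 and 153 in FU-CM. The 2 HCT-8/FU libraries were the lowest of the 8, and FU-CM came next, without overlap with the remaining groups. HCT-8/FU was 1.27-fold under HCT-8 (132 ± 0.173 against 168 ± 3.52 CPM; log2 fold change -0.35, SE 0.07, FDR = 0.0016 in edgeR), which did not reach the fold threshold. FU-CM was 1.12-fold under control-CM (log2 fold change -0.16, SE 0.07, FDR = 0.13 in edgeR). SMAD3 was DE in none of the 6 pairs of groups.

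SMAD7, the inhibitory SMAD that blocks the type I receptor and recruits ubiquitin ligases to it, rose in HCT-8/FU over HCT-8 but not in FU-CM over control-CM. It lies on the minus strand of chromosome 18, from 48919853 to 48950965 (ENSG00000101665). Its libraries read 19.2 and 20.9 CPM in HCT-8, 29.4 and 35.9 for HCT-8/FU, 30.7 and 29.5 in control-CM, and 29.8 and 28.6 in FU-CM. Both HCT-8 libraries lay below the other 6, and the other 3 groups overlapped one another. How many of all genes have HCT-8 lowest in this way was not counted. HCT-8/FU exceeded HCT-8 by 1.57-fold (32.7 ± 4.64 against 20.1 ± 1.19 CPM; log2 fold change 0.65, SE 0.12, FDR = 0.00055 in edgeR). control-CM exceeded HCT-8 by 1.48-fold, a log2 fold change of 0.57 (SE 0.12, FDR = 0.0039 in edgeR) just under the threshold. FU-CM exceeded HCT-8 by 0.53 on the log2 scale (SE 0.12, FDR = 0.0037 in edgeR), likewise under the threshold. FU-CM and control-CM, at 29.2 ± 0.843 and 30.1 ± 0.9 CPM, differed by -0.04 (SE 0.11, FDR = 0.86 in edgeR, 95% interval -0.26 to 0.18). The effects in HCT-8/FU and in FU-CM differed from each other by 0.69 (SE 0.17, FDR = 0.013 in edgeR), and SMAD7 was the only one of the 8 tested members for which this difference passed an FDR of 0.05, as it did for 11.6% of all tested genes. Without HCT-8/FU replicate 2, the shallowest library, the rise was 0.53 (FDR = 0.0057 in edgeR), under the fold threshold. The difference of the effects no longer passed when HCT-8 replicate 1, HCT-8 replicate 2, HCT-8/FU replicate 2 or either FU-CM replicate was left out, with values of 0.57 to 0.72 and an FDR of 0.05 (rounded) to 0.077 in edgeR.

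Upstream of SMAD7, chr18:48950966-48951215 on the minus strand, the 250 bases before the RefSeq start hold 2 core motifs, in capitals as above, and have a GC content of 48%.
SMAD7 upstream: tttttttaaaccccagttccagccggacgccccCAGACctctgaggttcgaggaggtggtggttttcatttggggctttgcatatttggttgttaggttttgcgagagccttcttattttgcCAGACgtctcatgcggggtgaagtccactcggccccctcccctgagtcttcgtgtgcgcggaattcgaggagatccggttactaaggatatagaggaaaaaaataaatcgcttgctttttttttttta
Of the other 2 RefSeq windows of SMAD7, 1 held a single core motif and the other none.

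SKIL encodes SnoN, a nuclear co-repressor of SMAD complexes that is degraded on TGF-beta stimulation and then re-expressed as a target gene. It lies on the plus strand of chromosome 3, from 170357342 to 170396835 (ENSG00000136603), and its core motif is shown above. The libraries read 13.3 and 9.49 CPM in HCT-8, 21.6 and 15 for HCT-8/FU, 5.75 and 4.93 in control-CM, and 14.9 and 14.3 in FU-CM. control-CM was lowest and HCT-8/FU highest, and no 2 groups overlapped. FU-CM exceeded control-CM by 2.79-fold (14.6 ± 0.41 against 5.34 ± 0.58 CPM; log2 fold change 1.48, SE 0.21, FDR = 0.00011 in edgeR). HCT-8/FU exceeded HCT-8 by 1.74-fold (18.3 ± 4.61 against 11.4 ± 2.69 CPM; log2 fold change 0.8, SE 0.2, FDR = 0.005 in edgeR). In control-CM, SKIL fell 2.09-fold relative to HCT-8 (log2 fold change -1.06, SE 0.22, FDR = 0.0033 in edgeR). These comparisons share libraries, since control-CM was the control of the first and HCT-8 that of the other 2. FU-CM lay above HCT-8 by 0.42 on the log2 scale (SE 0.19, FDR = 0.13 in edgeR), which was not DE.

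The rise of SKIL in HCT-8/FU depended on single libraries and on the GC correction. It was 0.49 (FDR = 0.17 in edgeR) without HCT-8 replicate 2 and 0.45 (FDR = 0.22 in edgeR) without HCT-8/FU replicate 1, and 0.12 (FDR = 0.7 in edgeR) when corrected for GC content and length. The difference between the conditioned media stayed DE after that correction, at 0.82 (SE 0.2, FDR = 0.017 in edgeR), as did the fall in control-CM, at -0.75 (SE 0.21, FDR = 0.03 in edgeR). After the same correction FU-CM and HCT-8 differed by 0.07 (FDR = 0.85 in edgeR). The exons of SKIL had the lowest GC content of the 9 members, 36.6%.

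BAMBI, a membrane pseudoreceptor that lacks the kinase domain and blocks receptor complexes, lies on the plus strand of chromosome 10, from 28677510 to 28682932 (ENSG00000095739). It read 13 and 14.1 CPM in HCT-8, 16.4 and 23.1 for HCT-8/FU, 20.4 and 17.8 in control-CM, and 20.5 and 21.9 in FU-CM. As for SMAD7, the HCT-8 libraries lay below the other 6. The largest difference was between FU-CM and HCT-8, 1.55-fold (21.2 ± 0.987 against 13.6 ± 0.756 CPM; log2 fold change 0.63, SE 0.15, FDR = 0.0071 in edgeR), the only pair in which BAMBI was DE. HCT-8/FU exceeded HCT-8 by 1.38-fold (log2 fold change 0.46, SE 0.16, FDR = 0.038 in edgeR), under the fold threshold, and by 0.74 (FDR = 0.0082 in edgeR) without HCT-8/FU replicate 1. FU-CM and control-CM differed by 0.17 (SE 0.15, FDR = 0.48 in edgeR, 95% interval -0.12 to 0.46).

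Over the members, 3 of the 8 tested were DE in HCT-8/FU over HCT-8 (TGFBR1, SMAD7 and SKIL), against 21.3% of all tested genes. All 3 were higher, a direction in which 13.2% of all genes were DE, and 8.12% were DE and lower. Between FU-CM and control-CM, 2 of 8 were DE (TGFBR1 and SKIL), both higher, against 9.25% of all genes, of which 7.97% were higher and 1.28% lower. Between control-CM and HCT-8, 1 of 8 was DE (SKIL, lower), against 8.15% of all genes, 3.86% higher and 4.29% lower. The median log2 fold change of the 8 was 0.28, 0.14 and 0.04 in the 3 comparisons, against medians of 0.01, -0.06 and 0.01 over all tested genes. A fit with a term for the 3 libraries with many unaligned records gave the same counts, 3, 2 and 1. With so few genes these shares are a description of the members and not a test. The plot of fold changes by comparison sets the 8 genes side by side.

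**Figure D2:**
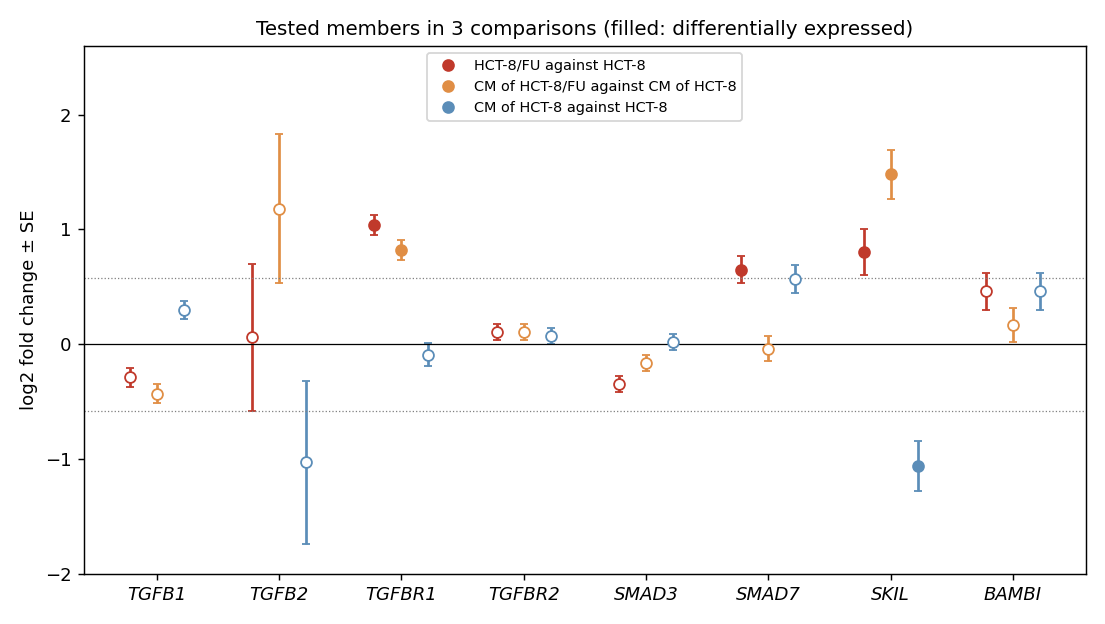
Log2 fold change ± SE of the 8 tested members in 3 comparisons of the edgeR fit; filled points are DE, and dotted lines mark ±0.58. TGFBR1 and SKIL are filled and positive in both comparisons with HCT-8/FU or its CM, SMAD7 is filled only for HCT-8/FU against HCT-8 (0.65), and the error bars of TGFB2 are the widest.

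Counts followed the GC content of genes differently from library to library. Across 19857 genes, each library's deviation from the overall mean had a Spearman correlation with exonic GC content of 0.0517 and 0.215 for the HCT-8 replicates, -0.488 and -0.452 for HCT-8/FU, 0.375 and 0.534 for control-CM, and -0.0652 and -0.0619 for FU-CM. These are descriptions, and all points of a library share its depth and handling. In both comparisons with HCT-8/FU or its CM the first group thus had relatively fewer counts on GC-rich genes. Among the members the exonic GC content ran from 36.6% (SKIL) and 39.1% (TGFBR1) to 56.1% (SMAD7) and 62.1% (TGFB1). The 2 members with the lowest GC content were those that were DE and higher in both comparisons, and TGFB1, with the highest, had negative fold changes in both. After the correction, which subtracts from each library its trend with GC content and length, 1 of 8 members was DE in HCT-8/FU over HCT-8 (SMAD7, 0.87, SE 0.14, FDR = 0.0003 in edgeR), against 15.3% of all genes. In the comparison of the CMs 1 of 8 was DE (SKIL), against 4.8%, and in that of control-CM with HCT-8 likewise 1 of 8 (SKIL), against 5.48%. TGFB1 moved from -0.29 to -0.05 in the first comparison. Whether the trend with GC content is technical was not tested.

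**Figure D3:**
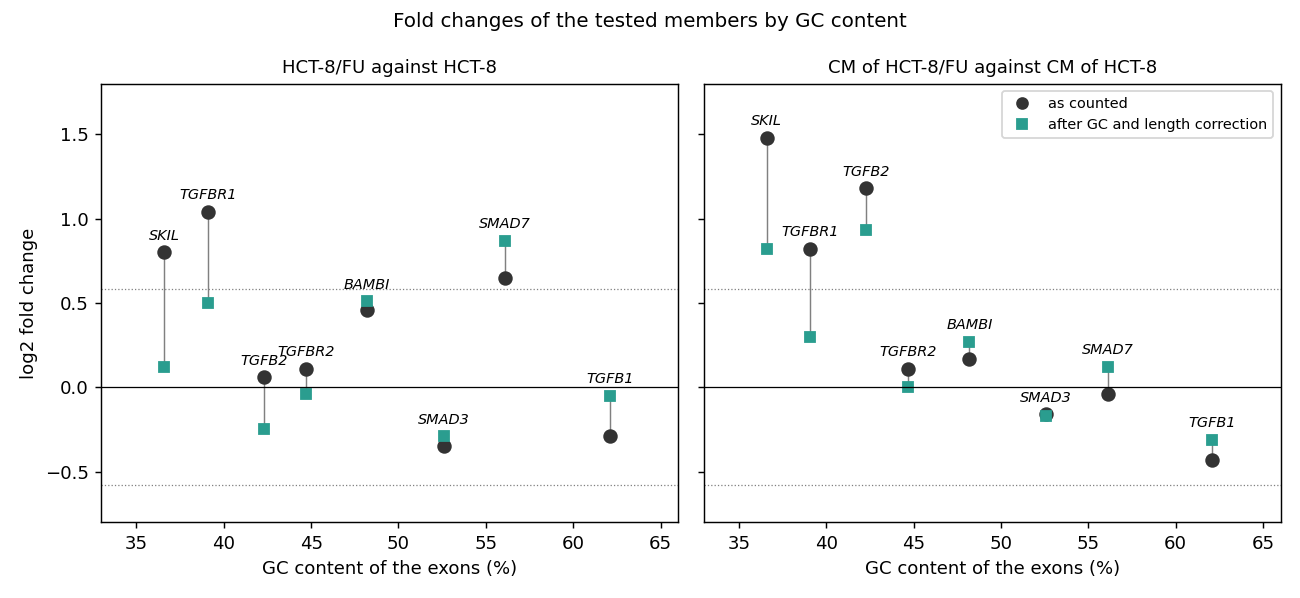
Log2 fold change of the 8 tested members against the GC content of their exons, as counted (circles) and after the GC and length correction (squares), in HCT-8/FU against HCT-8 (left) and FU-CM against control-CM (right); dotted lines mark ±0.58. SKIL and TGFBR1, at 36.6% and 39.1% GC, move down by the most, and SMAD7, at 56.1%, moves up from 0.65 to 0.87 on the left.

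Across all 6 pairs of groups, 11 of the 48 tests of a member were DE. The pairs share groups, so these tests are not separate observations. By pair, the share of all genes that was DE ran from 2.79% (HCT-8/FU against FU-CM) to 21.3% (HCT-8/FU against HCT-8). FU-CM and HCT-8 differed in 2 of the 8 members (TGFBR1 and BAMBI), against 10.4% of all genes. HCT-8/FU and control-CM differed in 3 (TGFB1, TGFBR1 and SKIL), against 20.2%. HCT-8/FU and FU-CM, which are different cells in different media, differed in 0 of the 8 in edgeR, against 2.79% of all genes, and in 0 in DESeq2. Of the 8, 2 had an unadjusted p under 0.05 in edgeR, and TGFBR1 had an FDR of 0.028 at a log2 fold change of 0.32 (SE 0.09). For TGFBR1 the order of the levels was HCT-8/FU, FU-CM, HCT-8 and control-CM, with a DE step only between the second and the third group. For SKIL the order was HCT-8/FU, FU-CM, HCT-8 and control-CM as well, with a DE step only between the last 2 groups. TGFB1 was highest in control-CM, followed by HCT-8, FU-CM and HCT-8/FU, and no single step of this order was DE. SMAD7 was highest in HCT-8/FU, followed by control-CM, FU-CM and HCT-8, and its last step was 0.53 (SE 0.12, FDR = 0.0037 in edgeR), under the fold threshold. BAMBI ran from FU-CM through HCT-8/FU and control-CM to HCT-8, with a last step of 0.46 (SE 0.16, FDR = 0.058 in edgeR). For TGFB2, TGFBR2 and SMAD3 no pair of groups was DE.

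The other genes of the pathway were taken from 7 lists of 91 genes with the members among them. These lists were chosen with earlier results of these data known, so the shares of their genes are a description and not a test. Of the 82 genes that are not members, 73 were tested. In HCT-8/FU over HCT-8, 27 of the 73 were DE, 17 higher and 10 lower, against the 21.3% of all genes given above. Between the CMs, 7 of 73 (9.59%) were DE, all higher, a share near the 9.25% of all genes. Between control-CM and HCT-8 also 7 (9.59%) were DE, 6 higher and 1 lower, near the 8.15% of all genes. After the GC correction the counts were 19, 2 and 7, against 15.3%, 4.8% and 5.48% of all genes. The effects in HCT-8/FU and in FU-CM differed for 21 of the 73, against 11.6% of all genes. The plot of the lists shows each tested gene.

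**Figure D4:**
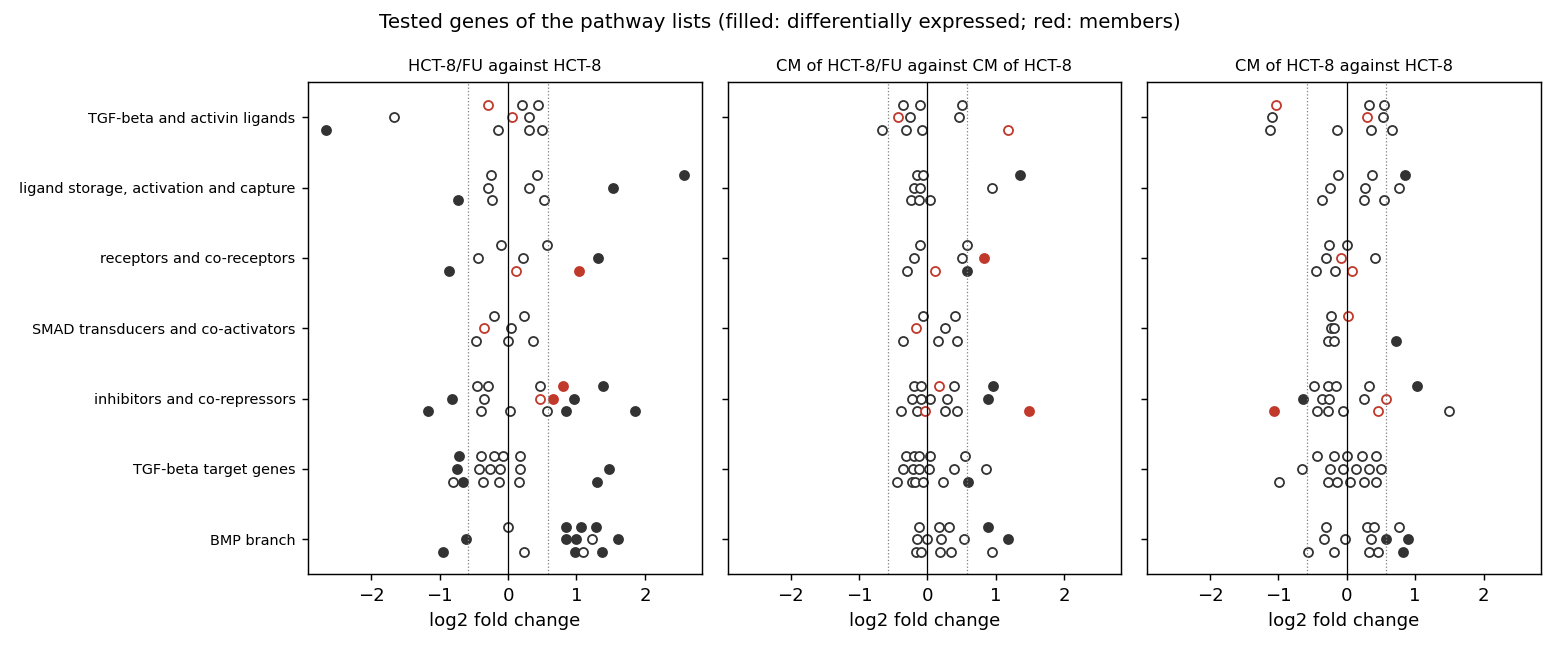
Log2 fold change of the tested genes of 7 pathway lists in 3 comparisons; each point is 1 gene, filled where DE and red for the members, with dotted lines at ±0.58 and the height within a list set only to separate points. The BMP branch has 10 filled points of 14 on the left and 2 in the middle panel, and the SMAD transducers have 0 filled points in both.

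Among 10 tested ligand genes, 1 was DE in HCT-8/FU, against 21.3% of all genes. INHBE, an activin beta subunit gene best known from liver, fell from 4.69 to 0.532 CPM (log2 fold change -2.66, SE 0.48, FDR = 0.00046 in edgeR). Its HCT-8/FU libraries held only 27 counts and 1 count, and the fold change ran from -4.73 to -2.35 over the alternative settings. In the comparison of the CMs 0 of the 10 were DE in edgeR or DESeq2, with 2 at an unadjusted p under 0.05 in edgeR, and for control-CM over HCT-8 likewise 0 in both tools, with 4 at that level. Of all genes, 9.25% and 8.15% were DE in these 2 comparisons in edgeR. Of 9 tested genes for ligand storage, activation and capture, HCT-8/FU had 2 higher and 1 lower, against 13.2% and 8.12% of all genes. Both higher genes encode integrin subunits that release latent TGF-beta: ITGAV rose from 74.1 to 212 CPM (log2 fold change 1.53, SE 0.09, FDR = 2.1e-08 in edgeR), and ITGB8 from 0.427 to 3.02 CPM (log2 fold change 2.57, SE 0.51, FDR = 0.00096 in edgeR). For ITGB8 the HCT-8 libraries held only 2 and 20 counts. The gene that fell was FURIN, the protease that cleaves the ligand precursors, from 92.3 to 55.3 CPM (log2 fold change -0.73, SE 0.09, FDR = 1.1e-05 in edgeR), and was no longer DE after the GC correction, at -0.49. With that correction the list held 3 higher and 0 lower genes in HCT-8/FU, against 15.3% of all genes DE in either direction. ITGAV was also the 1 gene of the list that rose in FU-CM over control-CM, from 58.3 to 148 CPM (log2 fold change 1.36, SE 0.09, FDR = 4.4e-07 in edgeR), and it was DE after the GC correction in both comparisons, at 0.8 and 0.59. FSTL3, a secreted activin-binding protein, was the 1 gene that rose in control-CM over HCT-8, from 37.9 to 69.1 CPM (log2 fold change 0.85, SE 0.1, FDR = 5.7e-05 in edgeR). Of all genes, 7.97% were DE and higher between the CMs and 3.86% in control-CM over HCT-8.

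Of 8 tested receptor genes, TGFBR1 and TGFBR3 rose in HCT-8/FU and ENG fell, against 13.2% of all genes DE and higher and 8.12% lower. TGFBR3, the co-receptor betaglycan that presents ligand to TGFBR2, rose from 111 to 276 CPM (log2 fold change 1.32, SE 0.09, FDR = 5.6e-08 in edgeR), and to 220 CPM in FU-CM from 148 CPM in control-CM (0.58, SE 0.09, FDR = 0.00019 in edgeR), a value on the fold threshold. Between the CMs it was under the threshold after the GC correction (0.33), without control-CM replicate 2 (0.44) and without FU-CM replicate 2 (0.56). Its effects in HCT-8/FU and in FU-CM differed by 0.74 (SE 0.12, FDR = 0.0011 in edgeR). ENG, the co-receptor endoglin, fell from 8.23 to 4.41 CPM in HCT-8/FU (log2 fold change -0.87, SE 0.22, FDR = 0.0059 in edgeR), but the fall was not called without HCT-8 replicate 2, at -0.65. Of 7 tested transducers and co-activators, SMAD3 among them, 0 were DE in HCT-8/FU over HCT-8 or between the CMs, in edgeR as in DESeq2, with 4 and 5 of them at an unadjusted p under 0.05 in edgeR. Of all genes, 21.3% and 9.25% were DE in these comparisons in edgeR. FOXH1, a DNA-binding partner of SMAD2 and SMAD3 complexes, was higher in control-CM than in HCT-8 (25.0 against 14.8 CPM; log2 fold change 0.72, SE 0.14, FDR = 0.0021 in edgeR), and was under the fold threshold after the GC correction, at 0.5.

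The 16 inhibitors and co-repressors, with SMAD7, SKIL and BAMBI among them, had 6 genes higher and 2 lower in HCT-8/FU, against 13.2% and 8.12% of all genes. After the GC correction the balance turned to 2 higher (SMAD7 and SMAD6) and 4 lower, against 15.3% of all genes DE in either direction, with the ubiquitin ligase gene NEDD4L (-0.69) and STRAP (-0.64), whose product binds SMAD7, joining TGIF1 and PMEPA1. SMAD6, the second inhibitory SMAD, which acts mainly on BMP receptors, read 7.11 and 6.03 CPM in HCT-8, 17.4 and 15.7 for HCT-8/FU, 11.7 and 14.0 in control-CM, and 17.0 and 17.2 in FU-CM. As with SMAD7, both HCT-8 libraries lay below the other 6. SMAD6 rose 2.62-fold in HCT-8/FU (log2 fold change 1.39, SE 0.17, FDR = 1e-05 in edgeR) and 2.04-fold in control-CM (1.03, SE 0.17, FDR = 0.00058 in edgeR). TRIM33, a ubiquitin ligase that binds SMAD2 and SMAD3 or targets SMAD4, rose in HCT-8/FU (log2 fold change 0.97, SE 0.12, FDR = 1.2e-05 in edgeR) and in FU-CM over control-CM (0.96, SE 0.12, FDR = 3.3e-05 in edgeR). WWP1, a ubiquitin ligase that SMAD7 brings to the receptor, rose in HCT-8/FU by 0.85 (SE 0.09, FDR = 3.1e-06 in edgeR) and between the CMs by 0.88 (SE 0.09, FDR = 5.6e-06 in edgeR). After the GC correction the rises of TRIM33 were 0.38 and 0.4 and those of WWP1 0.35 and 0.42, all under the fold threshold, whereas that of SMAD6 in HCT-8/FU was 1.54.

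PMEPA1, a TGF-beta-induced membrane protein that sequesters SMAD2 and SMAD3, went the other way. It read 40.5 and 38.4 CPM in HCT-8, 16.6 and 19.1 for HCT-8/FU, 28.1 and 23.0 in control-CM, and 22.5 and 20.3 in FU-CM. Both HCT-8 libraries lay above the other 6. PMEPA1 fell in HCT-8/FU (log2 fold change -1.17, SE 0.13, FDR = 5.1e-06 in edgeR) and in control-CM (-0.64, SE 0.12, FDR = 0.002 in edgeR) relative to HCT-8, the latter at -0.49 without control-CM replicate 2, under the threshold. TGIF1, a homeodomain co-repressor, fell from 118 to 67.5 CPM in HCT-8/FU (log2 fold change -0.82, SE 0.08, FDR = 2.4e-06 in edgeR). Both remained DE after the GC correction in HCT-8/FU, at -1.03 and -0.82.

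**Figure D5:**
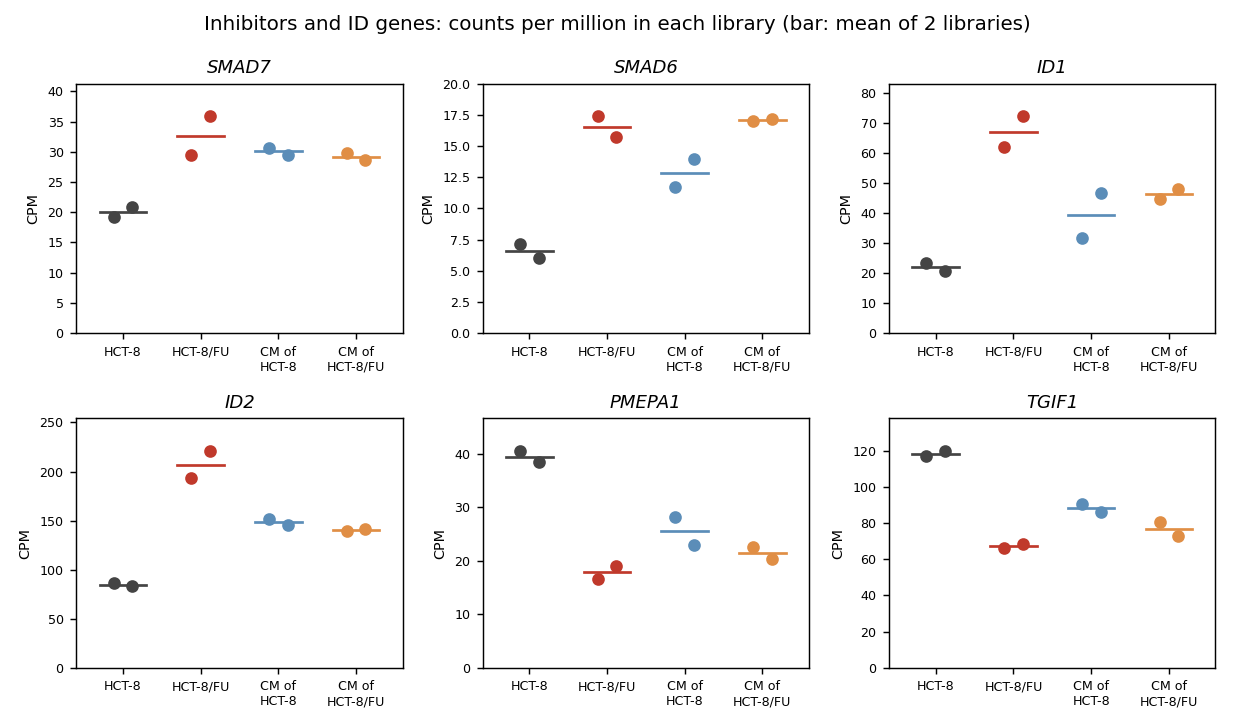
CPM (linear axis from 0) of SMAD7, SMAD6, ID1, ID2, PMEPA1 and TGIF1 in the 8 libraries, with points for libraries and bars for the mean of 2. In SMAD7, SMAD6, ID1 and ID2 the HCT-8 libraries are the lowest of the 8, and in PMEPA1 and TGIF1 they are the highest. The genes shown were picked for display. The share of all genes with HCT-8 lowest or highest was not counted.

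Of 17 tested TGF-beta target genes, HCT-8/FU had 2 higher and 3 lower, against 13.2% and 8.12% of all genes. The median log2 fold change of the 17 was -0.2. After the GC correction 2 were higher and 0 lower, against 15.3% of all genes DE in either direction. HMGA2, an architectural chromatin protein, rose from 10.8 to 30 CPM (log2 fold change 1.47, SE 0.13, FDR = 7.4e-07 in edgeR), and FN1, which encodes fibronectin, from 4.77 to 11.5 CPM (1.3, SE 0.32, FDR = 0.0047 in edgeR), though FN1 was not called without HCT-8 replicate 2, at 0.84. CDKN1A, the cell cycle inhibitor p21, fell from 233 to 142 CPM (log2 fold change -0.72, SE 0.08, FDR = 6.4e-06 in edgeR), and TAGLN, an actin-binding protein, from 11 to 6.21 CPM (-0.74, SE 0.21, FDR = 0.011 in edgeR). Neither was DE after the GC correction, at -0.49 and -0.57, and TAGLN was not called without HCT-8/FU replicate 2 either, at -0.63. HMGA2 was the 1 target gene of the 17 that rose between the CMs, by 0.6 (SE 0.13, FDR = 0.0034 in edgeR), by 0.5 without FU-CM replicate 1, under the threshold, and by 0.0 (FDR = 1 in edgeR) after the GC correction. Of all genes, 7.97% were DE and higher between the CMs. For control-CM over HCT-8, 0 of the 17 were DE in edgeR or DESeq2, with 4 at an unadjusted p under 0.05 in edgeR. Of all genes, 8.15% were DE there in edgeR.

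The BMP branch, which shares SMAD4 with the TGF-beta branch but signals through SMAD1, SMAD5 and SMAD9, had 8 of its 14 tested genes higher and 2 lower in HCT-8/FU, against 13.2% and 8.12% of all genes. The median log2 fold change of the 14 was 0.98, and after the GC correction 4 were higher and 2 lower, against 15.3% of all genes in either direction. ID1 and ID2 encode inhibitors of basic helix-loop-helix factors and are direct BMP targets. ID1 read 23.3 and 20.8 CPM in HCT-8, 61.9 and 72.2 for HCT-8/FU, 31.7 and 46.7 in control-CM, and 44.6 and 48.0 in FU-CM. It rose 3.05-fold in HCT-8/FU (log2 fold change 1.61, SE 0.15, FDR = 1e-06 in edgeR) and 1.85-fold in control-CM (0.89, SE 0.15, FDR = 0.00086 in edgeR), but FU-CM and control-CM overlapped and differed by 0.2 (SE 0.14, FDR = 0.35 in edgeR, 95% interval -0.07 to 0.48). The rise of ID1 in control-CM was not called without HCT-8 replicate 2 (0.71) or without control-CM replicate 2 (0.54). ID2 likewise rose in control-CM, from 84.9 to 149 CPM (log2 fold change 0.82, SE 0.08, FDR = 1.1e-05 in edgeR). In HCT-8/FU the ID2 libraries read 193 and 221 CPM, against 86.2 and 83.5 in HCT-8. BMPR2, the type II BMP receptor, rose from 25.8 to 68.0 CPM in HCT-8/FU (log2 fold change 1.38, SE 0.11, FDR = 2.2e-07 in edgeR) and from 21.2 to 47.6 CPM between the CMs (1.18, SE 0.11, FDR = 2.7e-06 in edgeR). SMAD5 rose between the CMs from 39.5 to 72.0 CPM (log2 fold change 0.89, SE 0.1, FDR = 1.3e-05 in edgeR), and was under the threshold after the GC correction, at 0.4. In HCT-8/FU its libraries read 102 and 96.6 CPM, against 49.8 and 46.3 in HCT-8. The ligand gene BMP2 and the type I receptor gene ACVR1 fell in HCT-8/FU, by 0.95 (SE 0.26, FDR = 0.0098 in edgeR) and 0.62 (SE 0.12, FDR = 0.001 in edgeR) on the log2 scale. BMP2 was not called without HCT-8/FU replicate 1, at -1.09, nor ACVR1 without HCT-8/FU replicate 2, at -0.5.

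The genes whose pattern over the 8 libraries was closest to each member were sought among the 11696 genes averaging 5 CPM or more, by the root mean square difference of centred log2 CPM. Closest to TGFBR1 were DSG2-AS1, TMEM135 and DSC2 (0.0627 to 0.066), and to SKIL the genes ZNF654, MINDY2 and DENND4A (0.115 to 0.123). HNRNPM, APCDD1 and PLSCR1 were closest to SMAD7 (0.0574 to 0.0702). For BAMBI these were UBE2CP5, NRARP and SLCO4A1-AS1 (0.0721 to 0.0873). PRKCSH, HCFC1R1 and TXN2 were closest to TGFB1 (0.0378 to 0.0408), LAMB1, ARHGAP44 and ESYT2 to TGFBR2 (0.0341 to 0.0458), and PPL, BACE1 and MYH9 to SMAD3 (0.0285 to 0.0335). The nearest gene to TGFB2, THAP10, was at 0.17. With 8 libraries in 4 groups such likeness describes the pattern of the groups and says nothing of shared control.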

How the data were processed

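mRNA libraries of 4 groups with 2 replicates were analysed. The authors aligned the reads with HISAT2 to GRCh38, sorted them with SAMtools 1.18 and counted them per gene with HTSeq 0.11.2, per the study's methods and the submitters' processing notes; the sources used here do not give the strand setting. The deposited values are raw counts per Ensembl gene, 1 file per library. Lines that name no gene were left out of library sizes and tests; records without a feature made up 33.7% to 49.6% of a library. The deposited tables of fold changes and p-values from the authors' DESeq2 1.30 were not used.

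Groups were taken from the sample titles. Counts were filtered with filterByExpr, scaled by TMM with HCT-8 replicate 2 as reference, and fitted in 1 quasi-likelihood model of the 4 groups in edgeR 4.0.16 (R 4.3.3), after the procedure had been tested on simulated data. CPM are counts relative to the TMM-scaled library size. DE required a Benjamini-Hochberg FDR no higher than 0.05 over 20305 genes and a log2 fold change of 0.58 or more in size; the difference of 2 effects was called on the FDR alone. Gene positions, exonic length and GC content came from GENCODE 44 on GRCh38. The GC correction subtracted from each library a spline (5 degrees of freedom) on GC content and log length, fitted over 19857 genes. Upstream sequences came from RefSeq on GRCh38.p14, and 9 of 9 members had an entry. The alternatives were DESeq2 1.42.0, other scalings, filters and samples in the fit, a replicate block, a term for the 3 libraries in which more than 15% of records had not aligned, the GC correction, and the fit without each library.

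The members, the pathway lists, the TMM reference and the tests were chosen with earlier results of these data known. Named from each list were up to 2 DE genes per direction and comparison, those with the largest fold change among genes of at least 1 CPM whose groups did not overlap. With 2 libraries per group, intervals and limits of detection cover only the spread between these libraries or counting error.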

Additional observations from a re-analysis of the deposited data

Results flagged for a closer look

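For SMAD7 the log2 fold change in HCT-8/FU exceeded that in FU-CM by 0.69, and the test of this difference passed an FDR of 0.05 in edgeR. The same test passed for 12 of the pathway genes named above. The difference, coded as the effect of HCT-8/FU over HCT-8 minus that of FU-CM over control-CM, was positive for ID1 (1.4), ID2 (1.37), SMAD6 (1.0), HMGA2 (0.87), TGFBR3 (0.74) and FSTL3 (0.55). It was negative for INHBE (-2.55), BMP2 (-1.26), PMEPA1 (-0.94), FURIN (-0.62), TGIF1 (-0.61) and CDKN1A (-0.6). A positive difference does not mean a higher level in HCT-8/FU than in FU-CM. The log2 fold change of HCT-8/FU over FU-CM was 0.13 for SMAD7 (FDR = 0.54 in edgeR) and -0.03 for SMAD6 (FDR = 0.93 in edgeR). It was -0.3 for FSTL3 (FDR = 0.061 in edgeR) and 0.33 for TGFBR3 (FDR = 0.02 in edgeR). Of all tested genes, 11.6% passed the test of the difference. The 12 genes were named for large fold changes in these same data, so their number cannot be compared with this share.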

How the results depend on the processing

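With the correction for GC content and length, with or without the replicate block, the DE members numbered 1 in place of 3 for HCT-8/FU against HCT-8 and 1 in place of 2 for the CMs, the DE pathway genes for the CMs numbered 2 in place of 7, and the DE pairs of groups over the members 5 in place of 11. By the FDR without a fold threshold the DE members were 6 for HCT-8/FU and 3 for control-CM, and the DE pathway genes 46, 16 and 26 of 73 in the order HCT-8/FU, CMs and control-CM. Of all 20305 tested genes, 7442, 4005 and 3949 passed the FDR alone in the same order. With 1 library left out, the DE members ranged from 2 to 3, 2 to 2 and 1 to 2 in that order, the DE pathway genes from 22 to 28, 6 to 9 and 5 to 11, the DE pairs from 9 to 12, and the members with a difference of effects from 0 to 1.

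In the labels, replicates of different groups are linked by their number alone. The deviations of same-numbered replicates correlated at -0.123 (HCT-8/FU with control-CM) to 0.132 (HCT-8 with control-CM) over the 6 pairs of groups. The value was -0.0862 for HCT-8 with HCT-8/FU and -0.0279 for the CM groups. The libraries with the fewest counts, HCT-8 replicate 1, HCT-8/FU replicate 2 and control-CM replicate 1, differ in number. These correlations therefore cannot show whether libraries of different numbers were handled together. With the replicate block alone the DE members were 3, 2 and 1 and the DE pathway genes 27, 8 and 7.

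Changes of sign concerned values that were not DE. TGFB2 in HCT-8/FU, fitted at 0.06 although its mean CPM was lower than in HCT-8 (0.932 against 1.22), was -0.17 with DESeq2 on 4 groups, -0.24 with DESeq2 on the groups compared, -0.1 with the replicate block, -0.25 with the GC correction, -0.41 with both, and -0.96 to 1.1 with 1 library left out; in control-CM, at -1.03, it was -2.1 to 0.02. TGFBR1 in control-CM was 0.15 with the GC correction with or without the block, and TGFBR2 in HCT-8/FU -0.04. TGFBR2 in control-CM was -0.05 to 0.11 with 1 library left out, and its difference of effects -0.14 to 0.03, or 0.01 with a minimum mean count of 10. SMAD3 in control-CM was -0.03 with DESeq2's size factors or DESeq2 on 4 groups, -0.01 without a filter, and -0.07 to 0.07 with 1 library left out. SMAD7 between the CMs was 0.05 with the other TMM reference or edgeR on the groups compared, 0.01 with DESeq2 on them, 0.12 with the GC correction with or without the block, and -0.07 to 0.02 with 1 library left out. The cause of these changes was not tested. TGFB2 rested on 4 to 36 counts per library.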
